A study of Mus musculus with 3 samples.

Results

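The genes described here are the 43 that encode the machinery of DNA replication origins and forks, taken by gene symbol from a fixed list that used no measured value. The list was, however, chosen with earlier results of these data known. All 43 were found among the 44788 gene symbols of the count table. RNA had been sequenced in 3 libraries of splenic T lymphocytes from female BALB/c mice of 6 to 8 weeks. The cells were isolated with beads against CD90.2, kept in RPMI medium with 2% fetal bovine serum and exposed to LZ-8, a fungal immunomodulatory protein, for 15 h. All 3 libraries belong to that single group, the LZ-8 dose is not given in the sources used here, and untreated cells were not analysed here. No value below is therefore a response to LZ-8. Whether the replicates came from separate mice, pools of mice or separate cultures is not stated, and the spread between these samples may be technical. The p-values below rest on these samples only. Those of the likelihood-ratio test compare the libraries with each other against counting noise, and those of the sign-flip test compare pairs of genes within the libraries. In bulk RNA, fewer cells expressing a gene and less RNA per cell cannot be told apart.

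Before a cell copies its DNA, the origin recognition complex (ORC) marks origins, and Cdc6 and Cdt1 load the ring-shaped MCM2-7 helicase there, a step called licensing that geminin blocks by binding Cdt1. In S phase the kinases Cdc7-Dbf4 and CDK2 fire the licensed origins: Cdc45 and the 4-subunit GINS complex join MCM2-7 to form the active helicase, and polymerases, a sliding clamp, its loader and nick-sealing enzymes copy both strands. Resting T cells carry little of this machinery and build it after a mitogen takes them from quiescence into the cell cycle.

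The libraries held 12669690 to 19041670 counts, and levels are given as CPM (counts per 1000000 counts of a library). Because long transcripts collect more reads, levels of different genes are compared per kilobase (kb), with the length taken as the union of all annotated exons. That length can be too long where a gene has many partial transcripts, up to 3.48 times the longest transcript for Dbf4. Orders of genes can therefore turn with the length of the longest transcript, and the main turns are pointed out, though not every one. T cell markers were abundant, with 10 of 10 genes summing to 4053 to 4205 CPM and Cd6, Cd5 and Lck the highest. Markers of other cells were low. The 6 genes of B cells had 16.7 to 18.5 CPM in sum. Those of monocytes and macrophages had 3.63 to 4.55 CPM, nearly all of it from Cd68 (4.20, 3.63 and 4.42 CPM). Csf1r, C1qa and Fcgr1 had 0 reads, and Adgre1 of that list was not among the symbols of the count table. Neutrophil genes had 0.105 to 0.272 CPM with Elane at 0. Plasma cell genes had 0.868 to 2.42 CPM, without Jchain, which was not among the symbols either. The part of such cells in the levels below was not tested.

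Every member was expressed: all 43 were at or above 1 CPM in each library, from Gins1 at 4.88 ± 0.868 CPM to Mcm5 at 337 ± 12.4 CPM (SD, n = 3). Together they took 0.359 ± 0.00252% of all counts, and the 6 MCM2-7 genes alone took 46.4 ± 0.601% of the members' counts. Per kb, the median member stood at 10.6 ± 0.728 CPM, against 8.27 CPM for the median of the 12812 tested genes with a length. By step, the median was 17.1 ± 0.704 CPM per kb for the 15 licensing genes, 3.25 ± 0.268 for the 8 firing genes, 8.97 ± 0.0783 for the 9 polymerase genes and 18.3 ± 0.342 for the 11 clamp, single-strand binding and ligation genes. Firing was thus the step with the lowest median. Per kb of exon union 1 of its 8 genes (Gins4) lay above the median tested gene, against 10 of 15, 6 of 9 and 8 of 11 in the other steps. With the longest transcript as the length the firing step was again lowest, at 6.56 CPM per kb, while the medians of the other steps were 14.5 to 24.4. Dbf4 then also lay above the median tested gene (11.4 against 10.8 CPM per kb).

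**Figure D1:**
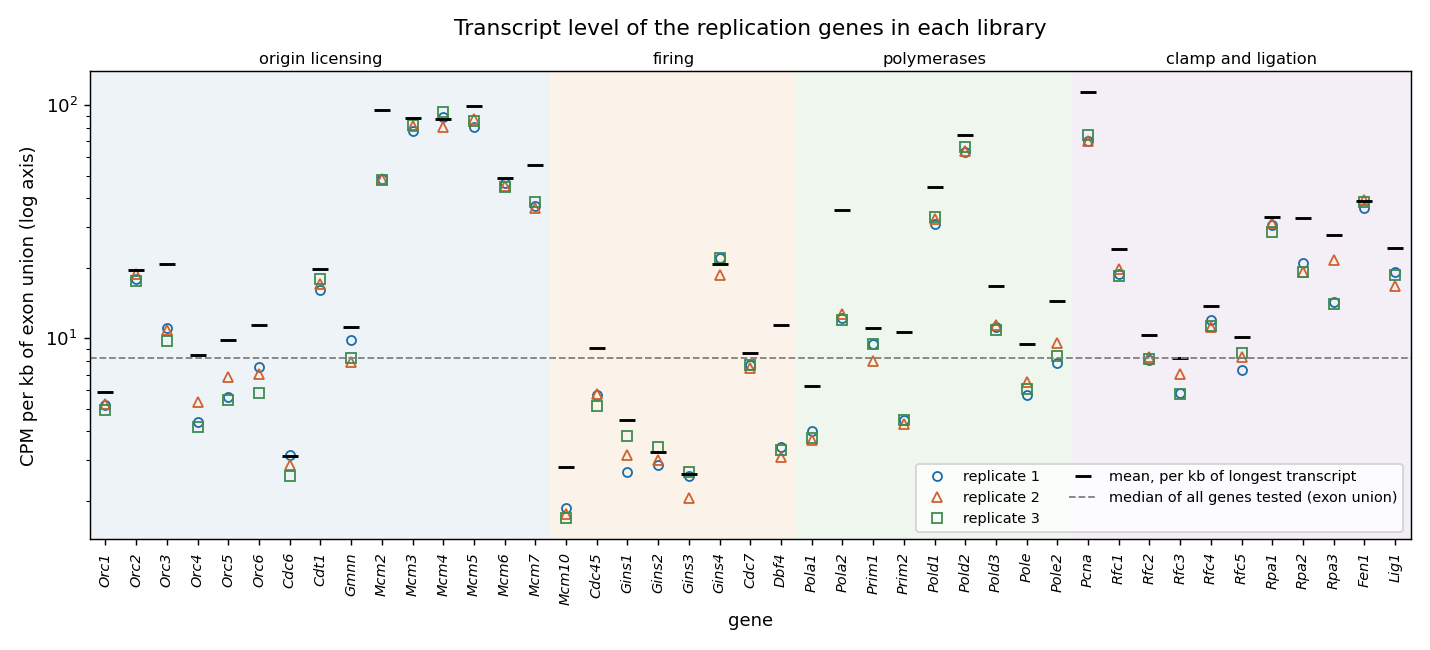
Level of each replication gene in CPM per kb of exon union (log axis) in the 3 libraries, ordered by step, with black dashes for the mean per kb of the longest transcript and a grey line at the median tested gene (8.27). Per kb of exon union the MCM2-7 genes, Pcna, Pold2 and Fen1 sit highest, and 7 of the 8 firing genes lie under the line.

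A promoter motif that the list did not use was more frequent in the members than in the other genes, though not present in all of them. E2F factors are the transcription factors best known for switching on replication genes at the G1/S boundary. An E2F-type motif, searched as TTTCCCG or TTTGGCG on both strands, lay within 250 bases before to 50 bases after a transcript start in 20 of the 35 members with a promoter window in RefSeq (GRCm38.p6), or 57.1%. The same windows held it in 10.1% of 8287 tested genes (833 genes) and in 5.55% of all 27025 genes with a window. The median GC content of the windows was 61.8% for members and 61.0% for tested genes. Other motifs were closer to the tested genes: the CCAAT box (CCAAT) was in 60.0% of members and 43.4% of tested genes, the GC box (GGGCGG) in 77.1% and 69.9%, and the CHR element (TTTGAA) in 7 of 35 members and 14.0% of tested genes. No overlap between different motifs was removed, and a match describes letters, not a bound site.

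Of the 20 members with a match, 10 had one wholly upstream of the RefSeq transcript start. In another annotation, GENCODE, the genes Cdc6, Gins3 and Mcm7 reach farther upstream than that start, so their matches fall inside the annotated gene. Stretches of 30 bases around such matches are shown for at least 1 gene of each step, 5′ to 3′ on the gene's strand, with the matched letters in capitals.
Orc3, ORC subunit (chr4:34614966-34614995, minus strand): gccatgcctcccTTTCCCGcacgccccgcc
Cdc6, MCM loader (chr11:98908002-98908031, plus strand): gccggtggagagCGGGAAAtcgcctggggt
Mcm5, helicase subunit (chr8:75109349-75109378, plus strand): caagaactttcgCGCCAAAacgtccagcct
Mcm6, helicase subunit, distal match (chr1:128359798-128359827, minus strand): atggcgtatgctTTTGGCGcgaaaagtgcg
Mcm6, proximal match (chr1:128359735-128359764, minus strand): tgattggacgggTTTGGCGcgaagtagctc
Gins3, GINS subunit (chr8:95633507-95633536, plus strand): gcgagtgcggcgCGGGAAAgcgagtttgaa
Pola1, polymerase alpha (chrX:93632275-93632304, minus strand): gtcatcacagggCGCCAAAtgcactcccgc
Fen1, flap nuclease (chr19:10204400-10204429, minus strand): taaggggcttgcTTTCCCGtccctaactca

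Counted from the transcript start, the first matched base lay at -41 in Orc3 (which holds another match at -218, not printed), -137 in Cdc6, -148 in Mcm5, -110 and -47 in Mcm6, -40 in Gins3, -137 in Pola1 and -24 in Fen1. Members with the motif had a median of 14.5 CPM per kb (20 genes) and those without it 8.97 (15 genes). Among tested genes the medians were 8.07 with the motif (830 genes) and 8.03 without (7431 genes). A match did not go with a high level in every member, since Gins3 and Pola1 carry one and were among the lowest of their steps.

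**Figure D2:**
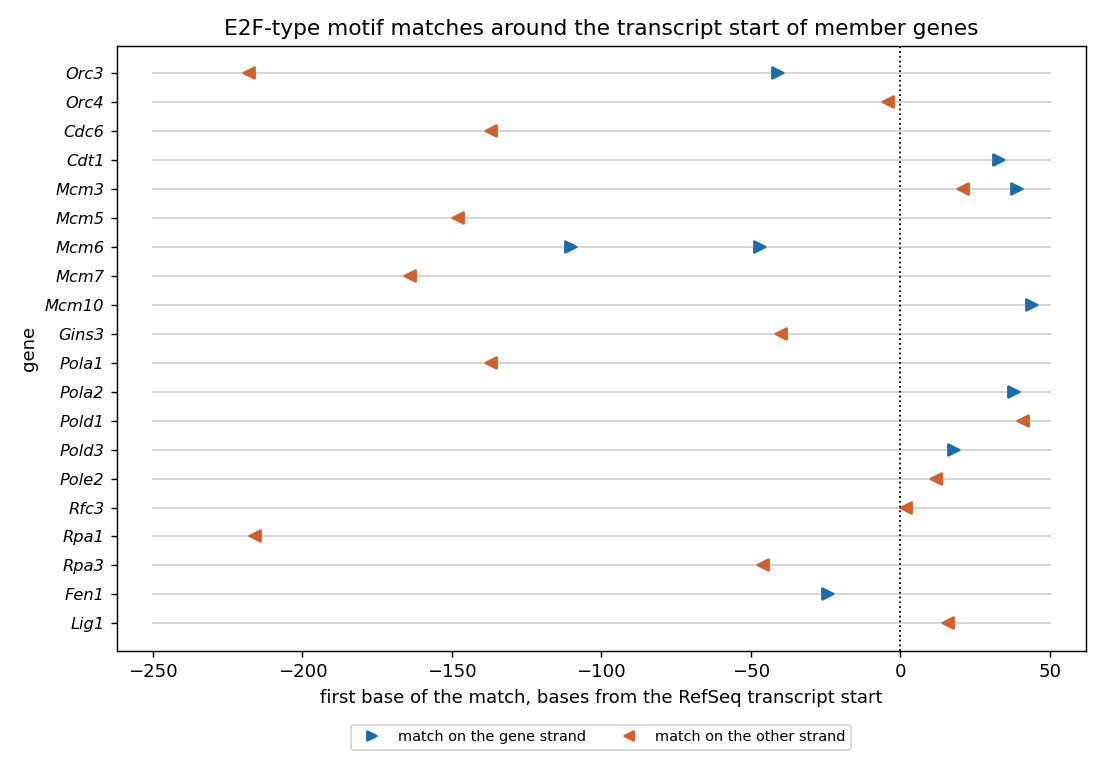
Position of the first base of each E2F-type motif match (horizontal axis, bases from the RefSeq transcript start at 0) in the 20 members that hold one, with the direction of the arrowhead giving the strand of the match. Matches lie on both sides of the start, and 10 members have one wholly upstream of it.

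Among the licensing genes, the helicase stood far above the factors that load it. Mcm4 had the highest level of any member per kb of exon union, 87.8 ± 6.55 CPM per kb, with 320, 289 and 336 CPM in replicates 1, 2 and 3. Mcm5, another ring subunit, was at 324, 348 and 341 CPM or 84.5 ± 3.11 CPM per kb, and Mcm3 at 291, 307 and 308 CPM or 80.4 ± 2.56 CPM per kb. The ranges of these 3 genes over the libraries overlapped. Mcm2, whose protein also binds histones, had 335, 337 and 334 CPM, the narrowest range of any member at 0.01 log2 units. It stood at 48.2 ± 0.262 CPM per kb of exon union and 95.97 ± 0.522 CPM per kb of its longest transcript. On the latter scale Mcm2 lay above Mcm3 (87.96 ± 2.80 CPM per kb) in every library, the reverse of their order per kb of exon union. Mcm6 was at 217, 211 and 208 CPM (45.5 ± 1.04 CPM per kb) and Mcm7 at 163, 161 and 171 CPM (37.3 ± 1.20 CPM per kb). Mcm6 and Mcm7 were the lowest of the ring under either length, below Mcm3, Mcm4 and Mcm5 in every library, though which of them was last turned with the length. Mcm7 also has a processed pseudogene, Gm5487, listed at 50.5, 46.1 and 43.6 CPM. The place of Mcm7 and the spread of the ring thus depend on how reads that fit both were assigned.

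The highest and lowest MCM2-7 gene differed 2.41 ± 0.0144-fold per kb of exon union and 2.05-fold per kb of the longest transcript. The Mcm4 to Mcm2 log2 ratio was 0.86 ± 0.12 per kb of exon union and turned to -0.13 per kb of the longest transcript, so the order of these 2 genes rests on the length used. Mcm4 lies on chromosome 16 at 15623897 to 15637400, Mcm5 on chromosome 8 at 75109569 to 75128439 and Mcm2 on chromosome 6 at 88883474 to 88898780 (GRCm38).

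ORC transcripts were lower and less even than those of the helicase. Orc2, a core subunit, was at 69.1, 72.6 and 67.8 CPM or 18.1 ± 0.643 CPM per kb, and Orc3, its partner in the core, at 67.6, 66.2 and 59.3 CPM or 10.6 ± 0.728 CPM per kb. The exons of Orc2 overlap Nif3l1 on the opposite strand over 29.8% of their length, and as the use of strand in counting is not given in the sources used here, part of its reads may belong to that gene. Orc6, the smallest subunit, had 18.7, 17.4 and 14.3 CPM (6.81 ± 0.909 CPM per kb), and Orc1, the subunit that is degraded and remade in each cell cycle in mammals, 18.0, 18.2 and 17.2 CPM (5.11 ± 0.146 CPM per kb). Orc5, another core subunit, was at 34.5, 42.1 and 33.6 CPM, and Orc4 at 32.8, 39.6 and 31.1 CPM, both highest in replicate 2. Orc4 was the lowest of the 6 at 4.62 ± 0.608 CPM per kb and overlapped Orc1 over the libraries, while per kb of the longest transcript Orc1 was lowest in every library. Per kb of exon union the spread from the highest to the lowest ORC gene was 3.97 ± 0.321-fold. With the longest transcript as the length Orc3 was highest at 20.8 ± 1.43 CPM per kb, against 19.6 ± 0.697 for Orc2, and their ranges overlapped. Orc1 reads stood below Orc2 reads per kb by a log2 ratio of -1.82 ± 0.03 and Orc6 below Orc2 by -1.42 ± 0.18.

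The loading factors differed strongly from each other, with Cdt1 high and Cdc6 low. Cdt1, which brings MCM2-7 to the origin, was at 50.8, 53.6 and 56.5 CPM or 17.1 ± 0.908 CPM per kb. Cdc6, the ATPase that works with it, had 16.5, 14.9 and 13.5 CPM or 2.86 ± 0.295 CPM per kb, the lowest licensing gene. Gmnn, which encodes the Cdt1 inhibitor geminin, had 14.4, 11.6 and 12.03 CPM, below Cdc6 in each library, but at 8.65 ± 1.02 CPM per kb it lay between Cdc6 and Cdt1. Cdt1 exceeded Gmnn 1.98-fold (log2 ratio Gmnn to Cdt1 -0.98 ± 0.23) and Cdc6 5.97-fold (Cdc6 to Cdt1 -2.58 ± 0.23) per kb, in each of the 3 libraries. Cdc6 was also below Orc1, a related ATPase, by -0.84 ± 0.12 log2 units.

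The genes that turn a licensed origin into a moving fork were low, and each was below every MCM2-7 gene in every library. The closest pair was Mcm7 over Gins4, by 1.66- to 1.95-fold per kb of exon union in the 3 libraries, and with the longest transcript as the length it was Mcm6 over Gins4, by 2.16- to 2.60-fold. The MCM2-7 median exceeded the firing median 19.5 ± 1.33-fold per kb of exon union and 13.5 ± 0.408-fold per kb of the longest transcript. Cdc45, the helicase activator, was at 19.96, 20.3 and 18.0 CPM (5.54 ± 0.351 CPM per kb), 8.70-fold below Mcm2 with a log2 ratio of -3.12 ± 0.09. Mcm10, which acts at the last step of helicase activation and is no subunit of the ring, had 14.3, 13.6 and 13.05 CPM. At 1.77 ± 0.0843 CPM per kb of exon union it was the lowest of all 43 members (per kb of the longest transcript Gins3 was lower), 27.1-fold below Mcm2 (log2 ratio -4.76 ± 0.07).

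GINS had the widest spread per kb of the 7 complexes with at least 3 of the listed genes, with 1 subunit far above the others. Gins4 (Sld5) had 29.9, 25.2 and 29.8 CPM or 21.0 ± 1.99 CPM per kb, above the other 3 in each library. Gins1 (Psf1) was at 4.04, 4.81 and 5.78 CPM, Gins2 (Psf2) at 11.8, 12.3 and 14.0 CPM and Gins3 (Psf3) at 6.93, 5.60 and 7.27 CPM, which is 3.22 ± 0.572, 3.10 ± 0.284 and 2.44 ± 0.325 CPM per kb. Per kb of exon union the ranges of Gins1 and Gins2 overlapped. The highest GINS gene stood 8.63 ± 0.402-fold above the lowest per kb of exon union and 8.03-fold per kb of the longest transcript. Depth limits these genes most, with 61 to 85 reads for Gins1 and 71 to 132 for Gins3. Gins2 is uncertain for another reason, since 67.3% of its exon length overlaps Gse1 on the opposite strand. The Gins2 to Gins3 log2 ratio was 0.35 ± 0.18. Gins4 lies on chromosome 8 at 23226616 to 23237659 and has no annotated exon overlap.

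Of the kinase that fires origins, the catalytic gene Cdc7 was at 32.1, 31.1 and 32.1 CPM and the activator gene Dbf4 at 29.99, 27.2 and 29.0 CPM. Per kb of exon union Dbf4 was lower (3.29 ± 0.165 against 7.60 ± 0.141 CPM per kb, log2 ratio -1.21 ± 0.05). Per kb of the longest transcript the ratio turned to 0.41, because the exon union of Dbf4 is 8728 bases and its longest transcript 2509 bases.

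Among the polymerases, the delta genes Pold2 and Pold1 were highest per kb. Pold2, the regulatory subunit of the lagging-strand polymerase delta, had 120, 121 and 126 CPM or 64.5 ± 1.58 CPM per kb, and the catalytic gene Pold1 151, 157 and 162 CPM or 32.2 ± 1.11 CPM per kb. Pold3 was the lowest of the 3 at 51.4, 52.7 and 50.1 CPM (11.2 ± 0.287 CPM per kb). This order held in every library and under both lengths, with a spread of 5.78 ± 0.274-fold. Pole, the catalytic gene of the leading-strand polymerase epsilon, was at 64.0, 72.2 and 67.5 CPM or 6.09 ± 0.371 CPM per kb, 5.30-fold below Pold1 (Pold1 to Pole log2 ratio 2.41 ± 0.07). Its partner Pole2 was at 22.5, 27.6 and 24.3 CPM or 8.61 ± 0.899 CPM per kb.

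In the polymerase alpha-primase complex, which lays down the primers, the accessory gene Pola2 led at 101, 106 and 99.1 CPM or 12.3 ± 0.426 CPM per kb. The catalytic gene Pola1 was lowest at 35.4, 32.2 and 33.1 CPM or 3.81 ± 0.187 CPM per kb. Prim1, the primase catalytic subunit, was at 36.7, 30.9 and 36.5 CPM (8.97 ± 0.845 CPM per kb), and Prim2, its regulatory subunit, at 26.6, 25.5 and 26.4 CPM (4.41 ± 0.102 CPM per kb). Pola2 was highest and Pola1 lowest in every library under both lengths, 3.24 ± 0.233-fold apart per kb of exon union and 5.67-fold per kb of the longest transcript. Prim1 exceeded Pola1 per kb by 1.23 ± 0.10 log2 units. Per kb of the longest transcript Prim1 (11.1 ± 1.05 CPM per kb) and Prim2 (10.7 ± 0.248) overlapped over the libraries.

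At the clamp step, Pcna encodes the ring that tethers polymerases to DNA and stood at 168, 169 and 180 CPM. Its 71.9 ± 2.64 CPM per kb of exon union lay above 93.6% of tested genes, and its 114 ± 4.18 CPM per kb of the longest transcript was the highest of all members on that scale. A copy of this gene was also listed with reads. Pcna-ps2, an annotated processed pseudogene with 75.2% of its 31-base words also in Pcna, was listed at 172, 165 and 169 CPM, or 48.5 to 50.6% of the reads of both rows. Mcm7 had such a copy too: Gm5487 took 20.3 to 23.6% of the reads of both rows at 50.5, 46.1 and 43.6 CPM. Smaller shares went to Gm12870 beside Rfc5 (9.52 to 10.9%) and to Gm6195 beside Rpa3 (4.57 to 14.5%). How reads that fit both a gene and its copy were assigned is not given in the sources used here.

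**Figure D3:**
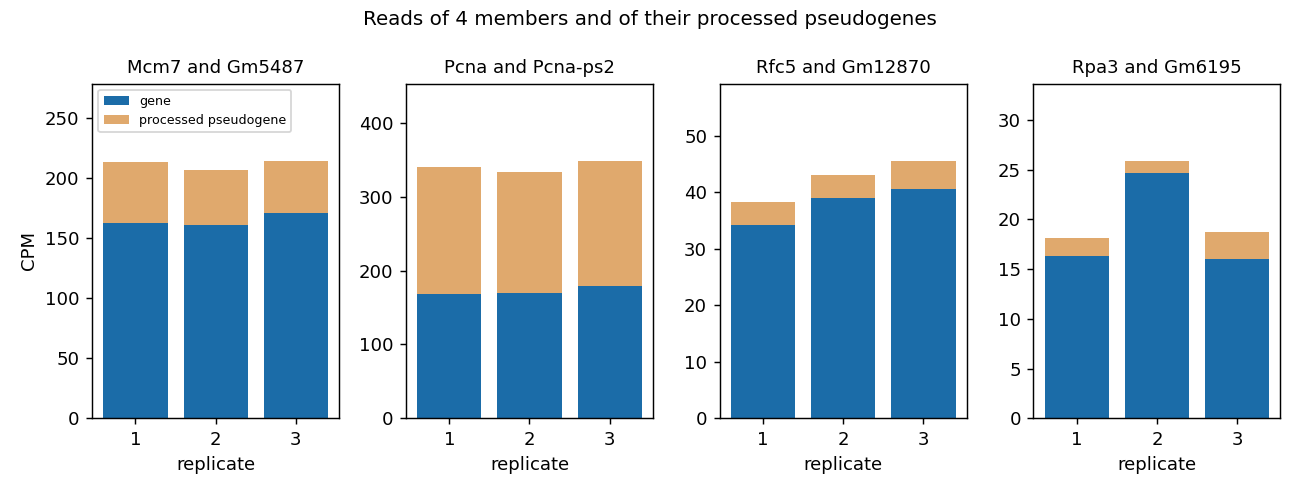
Stacked CPM of 4 members (blue) and of their processed pseudogenes (tan) in replicates 1, 2 and 3, each panel with its own axis from 0. Pcna-ps2 holds about as many reads as Pcna in every library, while the shares of the other copies are smaller.

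The clamp loader genes were lower than the clamp. Rfc1, the large subunit, was at 114, 119 and 112 CPM or 19.1 ± 0.677 CPM per kb, above Rfc2 to Rfc5 in every library. Pcna exceeded it by 1.91 ± 0.09 log2 units per kb, or 2.90 with the pseudogene reads added. Rfc4 stood at 18.5, 17.1 and 17.4 CPM (11.5 ± 0.469 CPM per kb), Rfc2 at 51.1, 52.6 and 51.4 CPM (8.20 ± 0.122 CPM per kb), Rfc5 at 34.2, 39.0 and 40.6 CPM (8.12 ± 0.705 CPM per kb) and Rfc3 at 21.2, 25.4 and 20.9 CPM (6.23 ± 0.699 CPM per kb). Rfc2 and Rfc5 overlapped over the libraries, and the whole loader spanned 3.08 ± 0.228-fold. Rfc2, Rfc4 and Rfc5 each overlap another gene on the opposite strand over 10.7 to 15.1% of their exon length.

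RPA, which coats single-stranded DNA, had the smallest spread per kb of those 7 complexes. Rpa1 was at 172, 175 and 159 CPM (30.3 ± 1.49 CPM per kb), Rpa2 at 63.2, 57.5 and 57.5 CPM (19.8 ± 1.10 CPM per kb) and Rpa3 at 16.3, 24.7 and 16.0 CPM (16.7 ± 4.36 CPM per kb). The raw CPM values differed 9.21-fold between highest and lowest, but the spread was 1.94 ± 0.270-fold per kb of exon union and 1.32-fold per kb of the longest transcript. On the latter scale the ranges of neighbouring RPA genes overlapped over the libraries. The Rpa2 to Rpa1 log2 ratio moved from -0.61 ± 0.09 to -0.02 with the longest transcript.

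Fen1, the nuclease that trims Okazaki fragment flaps, had 88.0, 95.3 and 93.4 CPM or 38.1 ± 1.55 CPM per kb. Lig1, the ligase that seals the remaining nick, was at 82.6, 72.0 and 79.6 CPM or 18.3 ± 1.28 CPM per kb, below Fen1 by a log2 ratio of -1.06 ± 0.16. The exons of Fen1 overlap the gene Gm10143 on the opposite strand over 78.8% of their length, so its level is uncertain. An exact two-sided sign-flip permutation test over the 3 libraries gave p = 0.25 for each of the 15 ratios computed, raw and Benjamini-Hochberg adjusted. That is the smallest p that 3 libraries allow, so no ratio could pass a threshold of 0.05. Each ratio had the same sign in 3 of 3 libraries.

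**Figure D4:**
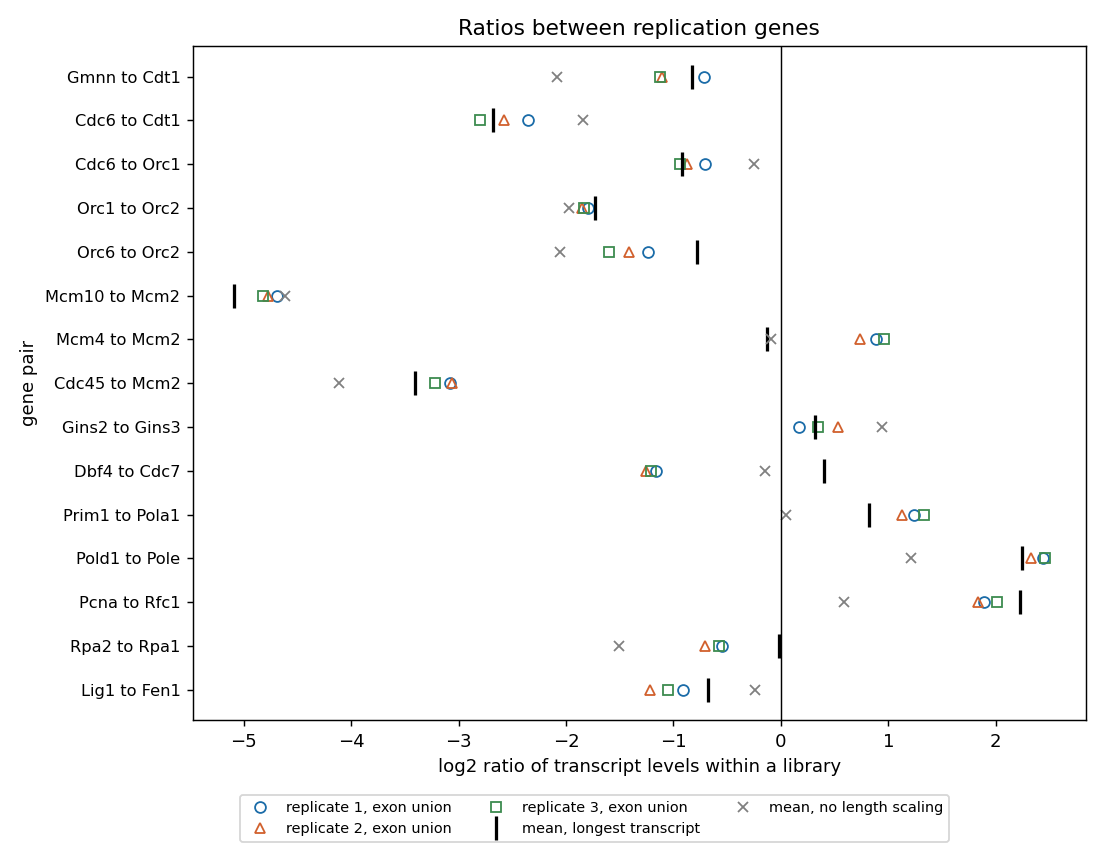
Log2 ratios of 15 gene pairs within each library (symbols, per kb of exon union), with the mean per kb of the longest transcript (vertical bars) and without length scaling (crosses). For 11 of the 15 ratios the longest transcript moves the mean by more than the range over the libraries, and Dbf4 to Cdc7 and Mcm4 to Mcm2 change sign.

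The libraries were next compared with each other, to see which members varied by more than counting noise. With edgeR's likelihood-ratio test at dispersion 0, which compares these libraries and not conditions, 9 of the 43 members varied at a Benjamini-Hochberg adjusted p under 0.05, against 13.7% of all 13500 genes tested. They were Orc4, Orc5, Mcm3, Mcm4, Mcm5, Rfc5, Rpa1, Rpa3 and Lig1. The test calls abundant genes more readily: 4 of the 12 members of at least 100 CPM varied (33.3%), against 33.9% of the tested genes of that level, and 5 of the 31 members under 100 CPM (16.1%), against 8.94% there. No firing or polymerase gene was among the 9. Those steps hold only 8 and 9 genes, of which 0 and 3 reached 100 CPM. At the shares over all tested genes few calls would fall in them, so this does not set them apart. From the lowest to the highest library, the median member spanned 0.13 log2 units and the median tested gene 0.16.

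The widest of the 9 was Rpa3, the small RPA subunit, with a range of 0.61 log2 units or 1.52-fold (edgeR adjusted p = 1.9e-06). Its 313 reads in replicate 2 gave 24.7 CPM with an exact 95% Poisson interval of 22.04 to 27.6, apart from replicate 1 (14.5 to 18.2) and replicate 3 (14.0 to 18.1). Mcm4 had the smallest adjusted p (9.2e-10) and a range of 0.22 log2 units, lowest in replicate 2. Orc4 (edgeR adjusted p = 0.0061) and Orc5 (0.0050) were high in replicate 2 by 0.34 and 0.32 log2 units over the lowest library, and Lig1 (0.032) had its lowest level there, with a range of 0.19. The other calls were small, with 0.09 log2 units for Mcm3 (adjusted p = 0.021), 0.11 for Mcm5 (0.0041), 0.13 for Rpa1 (0.044) and 0.25 for Rfc5 (0.040).

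Replicate 2 was the highest library for 5 of the 9 and the lowest for 2. Replicate 1 was highest for 1 and lowest for 3, and replicate 3 highest for 3 and lowest for 4. The same shares over all genes called were not counted. Without replicate 2 the count was 5, of which 3 were among the 9, and Orc4, Orc5, Rpa3, Mcm4, Rpa1 and Lig1 no longer passed (edgeR adjusted p = 0.72, 0.90, 0.96, 0.054, 0.086 and 0.70). Orc3 and Orc6 passed then, at 0.049 and 0.034. The 5 of 43 members (11.6%) called then compare with 9.03% of all genes tested without replicate 2. The count was also 5 (11.6%) without replicate 1, against 8.48% of all genes, and 6 (14.0%) without replicate 3, against 5.61%. Adding the reads of the processed pseudogenes to Mcm7, Pcna, Rfc5 and Rpa3, a setting chosen after the data were seen, left the same 9 genes called.

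**Figure D5:**
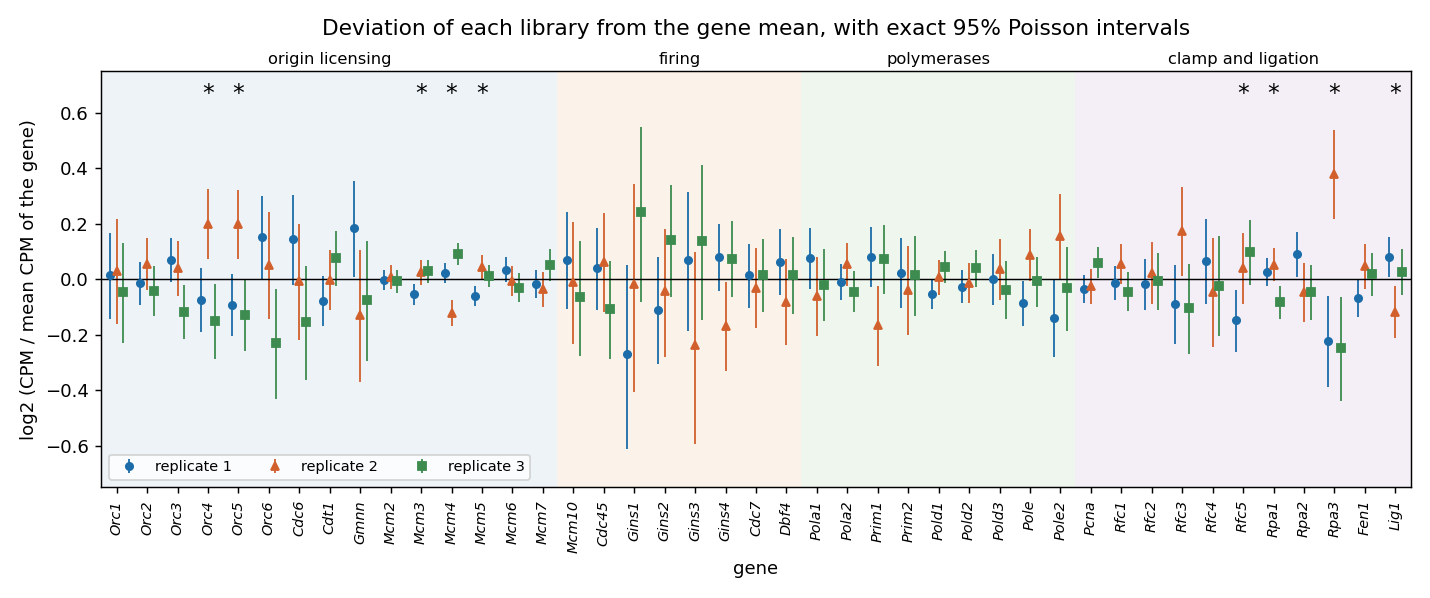
Log2 deviation of each library from the mean CPM of each member, with exact 95% Poisson intervals as bars (counting error only) and asterisks above the 9 members that varied between the libraries. Rpa3 in replicate 2 lies farthest from its mean among the 9, and the intervals are widest for Gins1 and Gins3.

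The rest of the replication pathway was taken from a list of 36 further genes, all of them tested. Of the 36, 3 varied between the libraries (Chtf8, Supt16 and Top1), against 13.7% of all genes tested. These 3 were above 100 CPM, a level at which 33.9% of tested genes varied. The median of the 36 genes was 7.88 ± 0.0641 CPM per kb. Above 100 CPM were 7 of 36, and 19.0% of all tested genes had at least that level. The highest were histone chaperone and fork accessory genes: Ssrp1, a subunit of the chaperone FACT, at 134 ± 2.84 CPM per kb, Chtf8, of an alternative clamp loader, at 58.7 ± 2.78, Supt16, the other FACT subunit, at 52.3 ± 2.47, and Pole4, a small polymerase epsilon subunit, at 32.3 ± 1.17. The symbol Chtf8 stands for overlapping annotated genes, so its length is uncertain. This order is per kb of exon union, and per kb of the longest transcript Top1 (48.9 CPM per kb) stood above Pole4 (45.8). The lowest were Ccne2 (cyclin E2) at 0.373 ± 0.0800 CPM per kb, Dscc1, of the same alternative loader as Chtf8, at 0.468 ± 0.159, the checkpoint mediator Clspn (claspin) at 1.22 ± 0.0452 and Ticrr (treslin), which brings Cdc45 to origins, at 1.39 ± 0.0540. Ticrr, like Mcm10 and Gins1 to Gins3 among the members, thus lay below the median tested gene, while Ssrp1 was above every member per kb of exon union. Of the 36 genes, 18 lay above the median tested gene on that scale, so Ticrr does not stand for the list. Topbp1 (20.3 CPM per kb) and Donson (25.7) were among those above it, and Mtbp (6.87) and Recql4 (4.30) among those below. An E2F-type motif was in the promoter windows of 11 of 28 of these genes (39.3%).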

How the data were processed

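RNA was measured by sequencing (Ion Proton kit, per the labels' protocols) in 3 libraries of 1 group. The authors deposited raw read counts per gene symbol. The submitters' processing notes name the build mm10; the sources used here do not give the aligner, the counter, the annotation or how strand and reads with several matches were handled. The members and lists were chosen with earlier results of these data known.

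CPM used library totals of 12669690, 14715992 and 19041670 counts. Lengths, positions, overlaps and shared 31-base words were taken from the GENCODE annotation vM21 on GRCm38 (mm10), where 32213 of 44788 symbols had a length, and promoter windows from RefSeq (GRCm38.p6). Rows counted as copies were annotated processed pseudogenes with at least 20% of their 31-base words in a member. With a single group, edgeR's quasi-likelihood test had no contrast to fit. The 13500 genes that reached 1 CPM in 2 or more libraries, all members included, were tested for differences between libraries with edgeR 4.0.16. The test was the likelihood-ratio test from glmFit after TMM scaling, its dispersion set to 0. Benjamini-Hochberg adjustment ran over all genes tested. A check of the procedure used simulated Poisson counts, the model that dispersion 0 assumes. That check therefore says nothing about variation beyond counting noise in the real libraries. Ratios had 0.5 added to each count and an exact sign-flip test. Intervals are exact Poisson at 95% and cover counting error only. All 43 members could be named, and of the other lists the highest, the lowest and those that varied. Topbp1, Donson, Mtbp and Recql4 were named besides these. Protein features were not analysed here. The marker list of 1 further cell type is not reported here. R 4.3.3, DESeq2 1.42.0 (size factors), Python 3.11.15, scipy 1.17.1 and pandas 2.3.3 were used.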

Additional observations from a re-analysis of the deposited data

How the results depend on the processing

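Lengths from the longest protein-coding transcript, the addition of pseudogene reads and the omission of members with a pseudogene copy were chosen after seeing the data. No paired analysis was possible because there was 1 group and nothing to pair. The count of varying members was 8 with unscaled totals, 9 with DESeq2 size factors, 6 without the filter, 9 with a minimum of 5 CPM and 5 to 6 with a library left out; over all genes it was 1668 to 1882, and 742 to 1193 with a library left out, where fewer samples entered. The median member level (10.6 CPM per kb) was 14.5 with the longest transcript, 17.5 with the longest coding transcript, 21.2 as a mean and 8.97 without the members that have a copy. For licensing, firing, polymerases and clamp and ligation the medians were 19.9, 6.56, 14.5 and 24.4 with the longest transcript, 24.5, 6.77, 16.7 and 24.6 with the longest coding transcript, and 30.9, 5.99, 16.9 and 22.6 as means. With a library left out the polymerase median ran from 8.74 to 9.46 and that of clamp and ligation from 17.9 to 18.7. The spread within a complex, in the order longest transcript, longest coding transcript and no length scaling, was 2.05, 2.08 and 2.07-fold for MCM2-7, 8.03, 8.03 and 5.92 for GINS, 5.67, 6.74 and 3.91 for polymerase alpha-primase, 4.44, 4.44 and 3.05 for polymerase delta and 1.32, 1.31 and 9.21 for RPA. For ORC it was 3.53 and 4.74 with the 2 transcript lengths, and for RFC 2.34 with the coding transcript and 6.52 with no scaling. Of the 15 ratios, Mcm4 to Mcm2 turned to -0.13, -0.18 and -0.093 under those 3 settings, and Dbf4 to Cdc7 to 0.41 and 0.23 with the transcript lengths; the other 13 kept their sign under every setting run, as did all 15 when 0.1 replaced the 0.5 added to counts or when any 1 library was dropped. The turns in sign follow from the lengths used; the cause of the lost calls without replicate 2 was not tested.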
